A study of Mus musculus with 18 samples.

Results

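The receptors of BAFF and APRIL are encoded by 3 genes, and all 3 were found in the table of 51912 genes by matching gene IDs to GRCm38 gene names: Tnfrsf13c, which encodes BAFFR, Tnfrsf13b, which encodes TACI, and Tnfrsf17, which encodes BCMA. They were followed in splenic B cells of C57BL/6 WT and Sh3gl1-/- mice, in transitional cells, in follicular cells taken ex vivo and in follicular cells cultured with CD40L, for 14 hours by the labels. Each of these 6 groups held 3 libraries of polyA RNA. Sh3gl1-/- mice lack endophilin A2, a membrane-curving endocytic protein, in every cell of the animal, and the study kept WT littermates as controls. Transitional cells had been sorted as B220+CD93+ and follicular cells as B220+CD93- by CD23 and CD21/35.

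BAFF and APRIL are ligands of the TNF family that keep B-lineage cells alive. BAFFR binds BAFF only and is the main survival receptor of mature naive B cells. It recruits TRAF3, which frees the kinase NIK to start the non-canonical NF-kB pathway through p100 and RelB. TACI binds both ligands and is known for restraining B cell numbers and for driving responses to T-independent antigens. BCMA also binds both ligands and is known for the survival of plasma cells. CD40 signals through the same TRAF, NIK and NF-kB proteins, so its ligand acts on a neighbouring arm of the same pathway. The study also followed BAFFR protein at the cell surface, which was not analysed here.

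Tnfrsf13c (ENSMUSG00000068105) is a compact gene of 3 exon blocks on the minus strand, at chr15:82221743-82224369 of GRCm38. Tnfrsf13b (ENSMUSG00000010142) has 8 exon blocks on the plus strand at chr11:61126755-61149372, and a processed pseudogene on the opposite strand, Gm12269, lies within it. Tnfrsf17 (ENSMUSG00000022496) has 3 exon blocks on the plus strand at chr16:11313812-11320074. The 250 bases before each start are printed because the text compares how the 3 transcripts changed between cell states. They come from RefSeq (GRCm38.p6), 5′ to 3′ on the strand of the gene, from chr15:82224381-82224630 for Tnfrsf13c, chr11:61126505-61126754 for Tnfrsf13b and chr16:11313559-11313808 for Tnfrsf17. Capitals mark every match, on either strand, to the loose NF-kB-like pattern GGGNNNNNCC, the TATA box TATAAA or the ETS-type word GGAAGT.
Tnfrsf13c: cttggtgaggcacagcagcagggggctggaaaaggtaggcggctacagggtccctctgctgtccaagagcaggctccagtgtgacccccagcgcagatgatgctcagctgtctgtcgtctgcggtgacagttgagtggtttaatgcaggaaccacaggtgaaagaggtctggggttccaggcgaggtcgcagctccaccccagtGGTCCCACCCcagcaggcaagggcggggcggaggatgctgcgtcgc
Tnfrsf13b: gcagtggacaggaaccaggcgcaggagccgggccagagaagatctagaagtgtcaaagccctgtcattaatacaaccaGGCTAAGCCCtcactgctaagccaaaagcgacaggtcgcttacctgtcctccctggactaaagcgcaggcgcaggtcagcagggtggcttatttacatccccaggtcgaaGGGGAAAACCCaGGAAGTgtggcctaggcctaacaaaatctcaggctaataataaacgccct
Tnfrsf17: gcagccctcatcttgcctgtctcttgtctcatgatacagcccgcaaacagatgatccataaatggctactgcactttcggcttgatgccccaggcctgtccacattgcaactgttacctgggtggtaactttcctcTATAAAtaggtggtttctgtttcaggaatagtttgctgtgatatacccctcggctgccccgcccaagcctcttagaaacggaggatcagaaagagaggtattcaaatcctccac
Tnfrsf13b held the NF-kB-like pattern at overlapping positions 62 and 61 bases before the start and once more 172 bases before it, and Tnfrsf13c held it once, 46 bases before the start. In Tnfrsf13b the ETS-type word began 50 bases before the start, separated from an NF-kB-like match by 1 base. Tnfrsf17 alone of the 3 held TATAAA, 114 bases before its start, and it held neither of the other words. Of 32851 promoter windows of this length, 45.8% held the NF-kB-like pattern, 12.4% TATAAA and 19.7% GGAAGT, so these matches describe the letters and no more.

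The libraries held 12404688 to 18366078 counts assigned to genes, so that 3 counts stood for 0.163 to 0.242 CPM, or counts of a gene per 1000000 counts of its library. Sh3gl1 itself gave 377 to 929 counts in the WT libraries and 1 to 22 in those labelled Sh3gl1-/-, in keeping with their labels. All 6 B cell markers had counts in every group, and Cd93, Vpreb3 and Cd24a were higher in transitional than in follicular cells of both genotypes. The study's legends give separate mice of each genotype for the follicular libraries, and the labels tie no library to a mouse. For the transitional libraries no source used here says so, and there p-values measure only the spread between libraries, which may be technical. In sorted bulk samples, fewer cells of a type and less RNA per cell cannot be told apart.

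The mRNAs for BAFFR and TACI were abundant in every library, and BCMA mRNA was close to absent outside the transitional sort. Per transcript length, in transcripts per 1000000 transcripts (TPM), Tnfrsf13c ranked between 140 and 646 of 21870 protein-coding genes across the 18 libraries, with a median rank of 353. Tnfrsf13b ranked between 239 and 967. In WT transitional cells Tnfrsf13c averaged 605.9 TPM ± 44.0 (SD, n = 3), against 377.5 ± 70.7 TPM for Tnfrsf13b and 1.38 ± 1.10 TPM for Tnfrsf17.

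Tnfrsf13c had its highest group mean in WT transitional cells, at 902.9 ± 61.3 CPM after TMM scaling of the library sizes (SD, n = 3), and the 3 WT transitional libraries lay above all the other 15. Its mean was 553.3 ± 83.2 CPM in Sh3gl1-/- transitional cells, 507.3 ± 50.6 in WT follicular cells, 482.1 ± 82.1 in WT cultured cells, 465.3 ± 57.4 in Sh3gl1-/- follicular cells and 392.5 ± 69.3 in Sh3gl1-/- cultured cells. Each of these 5 groups overlapped the next in that order. For Tnfrsf13b the order of means was WT transitional (622.0 ± 108.5 CPM), Sh3gl1-/- transitional (572.8 ± 62.5), WT follicular (445.7 ± 62.5), Sh3gl1-/- cultured (415.7 ± 34.2), Sh3gl1-/- follicular (369.9 ± 21.2) and WT cultured (296.2 ± 67.5). Neighbours in this order overlapped except Sh3gl1-/- transitional against WT follicular, and Sh3gl1-/- cultured against Sh3gl1-/- follicular.

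**Figure D1:**
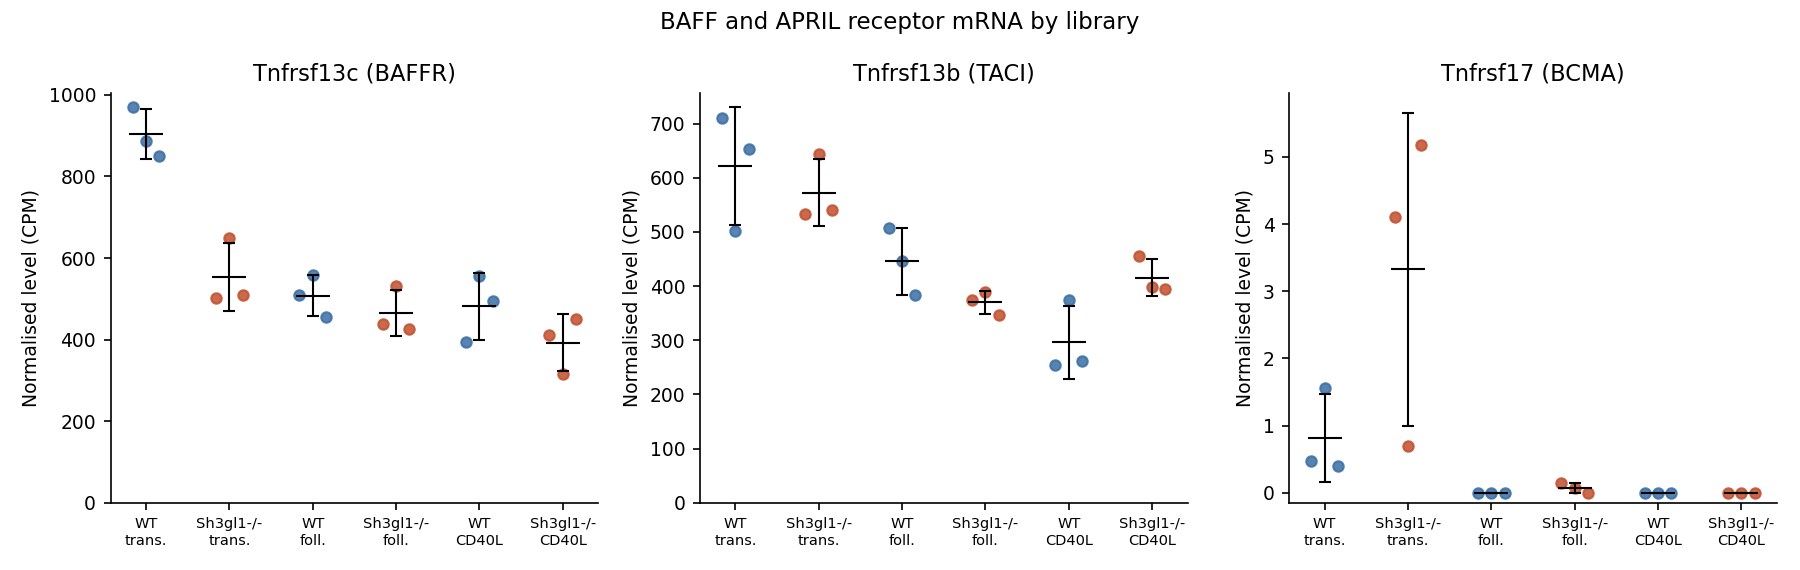
Level of each receptor mRNA in each of the 18 libraries (CPM after TMM scaling, linear axes), with 1 point per library and the group mean ± SD in black; trans. is transitional, foll. is follicular ex vivo, blue is WT and red is Sh3gl1-/-. The 3 WT transitional libraries sit at 851.3 to 970.6 CPM for Tnfrsf13c, above all the others, and Tnfrsf17 leaves the floor in the transitional libraries.

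BAFFR mRNA was lower in Sh3gl1-/- than in WT transitional cells, while TACI mRNA was not called different. Tnfrsf13c stood at 970.6, 886.7 and 851.3 CPM in the WT libraries and at 501.6, 649.3 and 509.0 CPM in the Sh3gl1-/- libraries. The groups did not overlap, and the highest Sh3gl1-/- library was replicate 2. The fitted log2 fold change was -0.71 (SE 0.11, edgeR quasi-likelihood test, Benjamini-Hochberg adjusted p = 0.018 over 13774 genes). By exact two-sided permutation p was 0.1, the smallest that 3 against 3 libraries allow. Of all genes tested in this comparison, 3.73% were called (173 higher, 341 lower), and Tnfrsf13c was 1 of the 3 receptors called. The call was lost without WT replicate 2 (adjusted p = 0.067 by edgeR), without Sh3gl1-/- replicate 1 (0.087) or without Sh3gl1-/- replicate 3 (0.097), and the range over all alternatives was 1.5e-08 to 0.097, with the log2 fold change between -0.83 and -0.64.

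Tnfrsf13b was at 711.0, 501.2 and 653.9 CPM in WT and at 533.7, 644.8 and 539.8 CPM in Sh3gl1-/- transitional cells. These groups overlapped throughout, and the log2 fold change was -0.12 (SE 0.13, edgeR adjusted p = 0.65).

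Marker mRNAs of other cell types, and of transitional cells themselves, also differed between the same transitional libraries. Of the 7 marginal zone B cell markers, Cd1d1, Plac8 and Fcrl5 were lower in Sh3gl1-/- cells, and the list summed to 886.6 to 1049 CPM in WT and 445.4 to 548.7 CPM in Sh3gl1-/- libraries. The 7 transitional markers summed to 879.3 to 1023 CPM in WT and 514.4 to 815.1 CPM in Sh3gl1-/- libraries, with Cd24a called lower. All 6 erythroid genes were higher in Sh3gl1-/- libraries, at 4451 to 9532 CPM in sum against 2285 to 3979 CPM, and the 7 neutrophil genes, with Camp called higher, summed to 115.9 to 577.9 CPM against 53.3 to 98.1 CPM. The 6 B cell markers summed to 15730 to 18300 CPM in WT and 12280 to 15900 CPM in Sh3gl1-/- libraries, which overlap. None of these markers was at 0, and their part in the lower Tnfrsf13c was not tested.

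In follicular cells ex vivo neither abundant receptor was called different between genotypes. Tnfrsf13c was at 508.3, 557.4 and 456.2 CPM in WT and at 437.9, 531.3 and 426.8 CPM in Sh3gl1-/- libraries, which overlap (log2 fold change -0.13, SE 0.10, edgeR adjusted p = 0.76). Tnfrsf13b was at 508.1, 445.9 and 383.2 CPM in WT and at 373.9, 388.9 and 347.0 CPM in Sh3gl1-/- libraries. Only Sh3gl1-/- replicate 2 reached into the WT range, and the log2 fold change was -0.27 (SE 0.10, edgeR adjusted p = 0.34). Among all 13610 genes tested, 0.845% were called. The 6 B cell markers summed to 11950 to 12510 CPM in WT and 10710 to 11450 CPM in Sh3gl1-/- libraries, with no overlap. Other summed markers also stood apart between these groups. The 7 marginal zone B cell genes were at 476.5 to 635.6 CPM in WT and 350.8 to 371.3 CPM in Sh3gl1-/- libraries. The 7 transitional genes were at 386.8 to 466 and 312.3 to 326.3 CPM. In the same order, 7 T cell genes were at 162.6 to 198.5 and 248.3 to 295.9 CPM. The 7 neutrophil genes were at 64.4 to 180 and 184 to 818.7 CPM. The part of all these sums was not tested.

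After CD40L culture TACI mRNA was higher in each Sh3gl1-/- library than in any WT library, but the fit across genes did not call it. Tnfrsf13b was at 253.6, 374.0 and 260.9 CPM in WT and at 455.2, 397.9 and 394.1 CPM in Sh3gl1-/- cultured cells. WT replicate 2 lay closest to the Sh3gl1-/- libraries. The log2 fold change was 0.52 (SE 0.16, edgeR adjusted p = 0.58), in a comparison in which 0.0227% of 13188 genes were called, and the exact two-sided permutation p was 0.1, the smallest possible. Tnfrsf13c was at 394.1, 556.6 and 495.5 CPM in WT and at 412.4, 315.5 and 449.7 CPM in Sh3gl1-/- cultured cells, with overlapping groups and a log2 fold change of -0.27 (SE 0.17, edgeR adjusted p = 0.76). Summed markers also stood apart between these cultured groups: 7 neutrophil genes were at 52.9 to 196.6 CPM in Sh3gl1-/- and 9.85 to 40.2 CPM in WT libraries, 7 marginal zone B cell genes at 113.9 to 135.3 and 180.0 to 188.9 CPM, 7 transitional genes at 42.8 to 56.4 and 58.8 to 92.9 CPM, and 7 plasma cell genes at 821.3 to 900.4 and 937.6 to 1061 CPM. The 6 B cell markers summed to 8310 to 8872 CPM in Sh3gl1-/- and 9204 to 9561 CPM in WT cultured libraries. Their part in the receptor values was not tested.

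The balance of the 2 abundant receptors within a library needs no scaling between libraries. In transitional cells the ratio of Tnfrsf13c to Tnfrsf13b TPM was 1.51, 1.98 and 1.43 in WT and 1.05, 1.11 and 1.04 in Sh3gl1-/- libraries. In cultured cells it was 1.65, 1.60 and 2.04 in WT and 0.956, 0.859 and 1.22 in Sh3gl1-/- libraries. WT and Sh3gl1-/- libraries did not overlap in either state, with differences of -0.57 and -0.75 in the mean ratio and an exact two-sided permutation p of 0.1 in each, the smallest possible. In follicular cells ex vivo the ratio was 1.08, 1.32 and 1.26 in WT and 1.26, 1.48 and 1.32 in Sh3gl1-/- libraries. There the groups overlapped and the mean was higher by 0.13 in Sh3gl1-/- cells (exact two-sided permutation p = 0.3). Those 3 comparisons were chosen after the levels were seen, and adjustment over them leaves no p below 0.1.

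**Figure D2:**
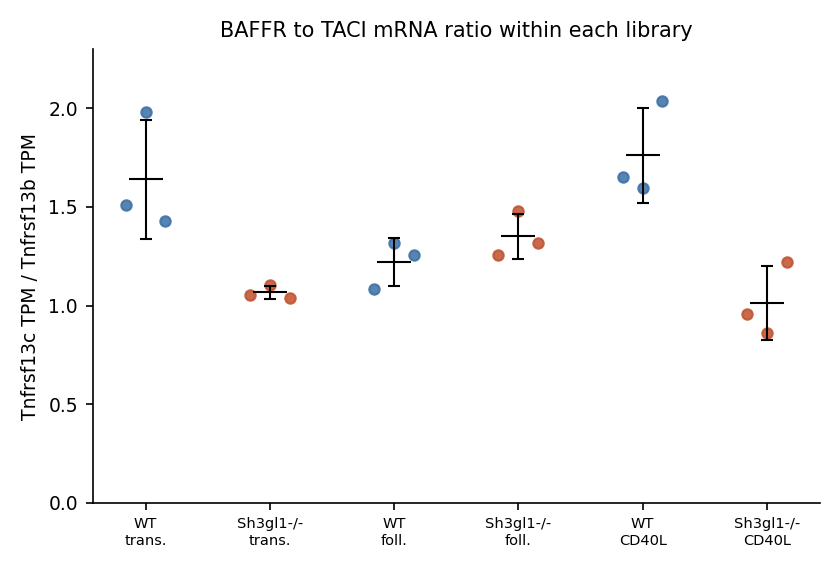
Ratio of Tnfrsf13c to Tnfrsf13b TPM within each of the 18 libraries (linear axis from 0), 1 point per library with the group mean ± SD in black; blue is WT and red is Sh3gl1-/-. WT points lie at 1.43 to 1.98 in transitional and 1.60 to 2.04 in cultured cells, above all Sh3gl1-/- points of the same state, and the genotypes overlap in follicular cells ex vivo.

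Both abundant receptors were lower in follicular than in transitional WT cells. Tnfrsf13c went from the 851.3 to 970.6 CPM above to 456.2 to 557.4 CPM, with no overlap, and fell by 0.82 on the log2 scale (SE 0.11, edgeR adjusted p = 1.9e-04 over 14580 genes). Tnfrsf13b fell by 0.47 on the log2 scale (SE 0.13, edgeR adjusted p = 0.015), although the lowest transitional library, at 501.2 CPM, lay below the highest follicular library, at 508.1 CPM. That call was lost without transitional replicate 1 (adjusted p = 0.066) or without follicular replicate 3 (0.065) in the edgeR fit. Of all genes, 25.9% were called in WT, and Tnfrsf13c and Tnfrsf13b were both among them.

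In Sh3gl1-/- cells, where 10.4% of genes were called, TACI mRNA was lower in follicular than in transitional cells, and BAFFR mRNA was not called. Tnfrsf13b fell by 0.64 on the log2 scale (SE 0.13, edgeR adjusted p = 0.0048), with no overlap between 533.7 to 644.8 CPM and 347.0 to 388.9 CPM. Tnfrsf13c was at 501.6 to 649.3 CPM in transitional and 426.8 to 531.3 CPM in follicular libraries, which overlap, and its log2 fold change of -0.26 (SE 0.11) was not called (edgeR adjusted p = 0.18). With a block for each replicate number within a genotype, the same change was called (adjusted p = 0.026; range over alternatives 0.026 to 0.60).

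The difference between genotypes in this comparison was 0.56 on the log2 scale for Tnfrsf13c (SE 0.16), with cell states closer in Sh3gl1-/- cells. It was not called by edgeR (adjusted p = 0.17, with 0.0686% of genes called). It was called with the block within genotype (0.57, adjusted p = 0.03) and by DESeq2 (0.59, adjusted p = 0.02), and the range over all alternatives was 9.4e-04 to 0.46. For Tnfrsf13b the difference was -0.17 (SE 0.18, edgeR adjusted p = 0.74). All 6 monocyte and macrophage markers were lower in follicular than transitional WT cells, at 108.4 to 143.1 CPM in sum against 414.8 to 494.1 CPM, and in Sh3gl1-/- cells 4 of the 6 were, at 112.5 to 255.4 against 351.3 to 629.1 CPM. The 6 B cell markers summed to 15730 to 18300 CPM in WT transitional and 11950 to 12510 CPM in WT follicular libraries. In Sh3gl1-/- cells they summed to 12280 to 15900 and 10710 to 11450 CPM. The 7 marginal zone B cell genes summed to 886.6 to 1049 CPM in WT transitional and 476.5 to 635.6 CPM in WT follicular libraries. In Sh3gl1-/- cells they summed to 445.4 to 548.7 and 350.8 to 371.3 CPM. The 5 B-1 cell genes were at 92.5 to 138.7 and 37.1 to 42.3 CPM in WT cells. In Sh3gl1-/- cells they were at 83.9 to 126.9 and 34.8 to 54.25 CPM. The 5 follicular B cell genes went the other way, at 4889 to 6205 and 7370 to 8658 CPM in WT. The part of all these markers in the receptor changes was not tested.

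BCMA mRNA was found almost only in the transitional libraries. Tnfrsf17 gave 7, 21 and 5 counts in the WT transitional libraries and 70, 11 and 72 counts in the Sh3gl1-/- ones. Sh3gl1-/- replicates 1 and 3 were far above the rest, and replicate 2 lay within the WT range. The log2 fold change of 2.02 (SE 0.76) was not called (edgeR adjusted p = 0.16), and it lay between 1.56 and 2.90 with 1 library left out, the latter without WT replicate 2. It was called when every gene with at least 1 count was kept (edgeR adjusted p = 0.0076, range over alternatives 0.0076 to 0.43). Tnfrsf17 passed the main filter on low counts mostly through the Sh3gl1-/- libraries, where it is higher, and no difference is concluded from these tests.

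In follicular cells ex vivo Tnfrsf17 had 0 counts in each WT library and 2, 1 and 0 counts in the Sh3gl1-/- libraries, and all 6 cultured libraries had 0. Against a floor of 3 counts over the 3 WT follicular libraries, its level was at least 11.8-fold higher in WT transitional cells, from 33 counts in sum. This bound takes the 33 counts as exact, so it leaves out their counting error and the spread between transitional libraries. That bound was 6.40-fold without WT transitional replicate 2, 7.55 to 8.26-fold without any 1 of the follicular libraries, whose total sets the floor, and at most 14.5-fold with another library left out. In Sh3gl1-/- cells 153 counts in transitional stood against 3 counts in follicular libraries, a ratio of 47.4 with an exact 95% interval of 15.9 to 232.3 that covers counting error only. Without Sh3gl1-/- follicular replicate 1, which leaves 1 follicular count, the ratio was 98.5, and it was 31.8 to 66.3 with any other library left out. Tnfrsf17 passed the filter on low counts only through the transitional libraries, where it is high, so no test between cell states is given, and it was left untested in the comparisons that held no transitional cells.

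Plasma cell genes varied among the same 6 transitional libraries. Jchain, which encodes the joining chain of secreted IgM and IgA, was at 648.7, 585.0 and 406.4 CPM in WT and at 2774, 1066 and 4518 CPM in Sh3gl1-/- libraries, and it was called higher. Xbp1, a transcription factor of secretory cells, was at 17.4, 15.3 and 19.2 CPM in WT and at 30.5, 18.6 and 42.9 CPM in Sh3gl1-/- libraries. The Sh3gl1-/- libraries with the most Tnfrsf17, replicates 1 and 3, also had the most Jchain, Xbp1, Prdm1 and Slamf7. Irf4 was lower in those replicates, at 62.5 and 73.1 CPM, than in replicate 2, at 79.7 CPM. Mzb1 was at 261.4 and 271.3 CPM there, below the 320.6 to 360.5 CPM of the WT libraries. Sdc1 was at 2.93 CPM in replicate 1, below the 3.35 CPM of WT replicate 2. Of the 7 plasma cell markers Jchain was called higher and Mzb1 lower, the list summed to 967.5 to 1205 CPM in WT and 1504 to 5047 CPM in Sh3gl1-/- libraries, and none was at 0, although Sdc1 did not pass 4.31 CPM and Prdm1 did not pass 1.58 CPM. In follicular cells ex vivo, where Tnfrsf17 was at or near 0 counts, the same list summed to 514.2 to 570.0 CPM in WT and 525.8 to 557.9 CPM in Sh3gl1-/- libraries. Their part in the level of Tnfrsf17 was not tested.

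**Figure D3:**
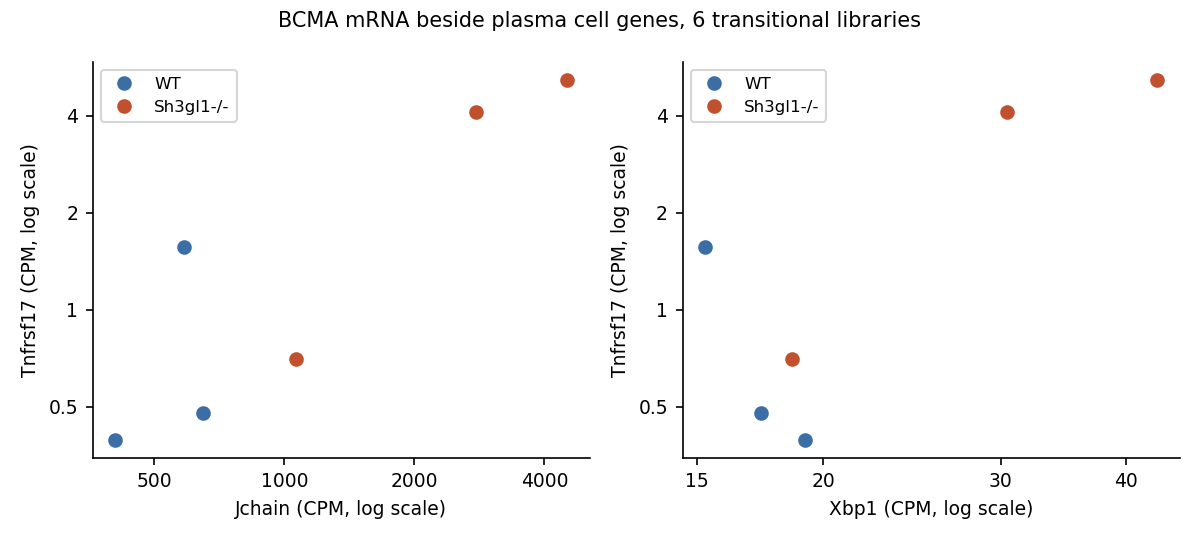
Tnfrsf17 against Jchain (left) and Xbp1 (right) in the 6 transitional libraries, all in CPM on log axes, blue for WT and red for Sh3gl1-/-. Sh3gl1-/- replicates 1 and 3, with 4.10 and 5.18 CPM of Tnfrsf17, sit at the upper right in both panels, and the other 4 libraries lie at 1.56 CPM of Tnfrsf17 or below. Irf4 and Mzb1, from the same plasma cell list, were not highest in Sh3gl1-/- replicates 1 and 3 and are not drawn.

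TACI mRNA was lower in WT cells cultured with CD40L than in WT cells ex vivo. No library came from cells cultured without CD40L, so an effect of CD40L cannot be told apart from one of culture itself. Tnfrsf13b went from 508.1, 445.9 and 383.2 CPM ex vivo to 253.6, 374.0 and 260.9 CPM after culture, with no overlap, and fell by 0.62 on the log2 scale (SE 0.14, edgeR adjusted p = 0.0028). This call held in all 19 alternatives, with adjusted p at most 0.019. In Sh3gl1-/- cells it was at 373.9, 388.9 and 347.0 CPM ex vivo and at 455.2, 397.9 and 394.1 CPM after culture. The cultured libraries lay above those ex vivo, but the log2 fold change of 0.15 (SE 0.14) was not called (edgeR adjusted p = 0.43). Among all 14460 genes, 49.3% were called in WT and 42.4% in Sh3gl1-/- cells. Of the 2 receptors tested, 1 was called in WT and 0 in Sh3gl1-/- cells.

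The difference between genotypes in this change with culture was 0.77 on the log2 scale for Tnfrsf13b (SE 0.20, edgeR adjusted p = 0.47), which was not called. It ranked 54 of 14460 genes by p, and edgeR called 0% of them (1278 at an unadjusted p under 0.05; DESeq2 called 29). Tnfrsf13b was called by DESeq2 (0.73, adjusted p = 0.04) and with every gene of at least 1 count kept (0.78, adjusted p = 0.0013), and the range over all alternatives was 0.0013 to 0.83. BAFFR mRNA was not called in either genotype: the log2 fold change of Tnfrsf13c with culture was -0.10 (SE 0.15, edgeR adjusted p = 0.60) in WT and -0.26 (SE 0.15, 0.17) in Sh3gl1-/- cells, with overlapping libraries in both. Without WT ex vivo replicate 2 or WT cultured replicate 1 the WT value was 0.01. Genes of T cells, NK cells and erythroid cells, called lower with culture in WT for all 7, 5 and 6 markers, summed to 67.1 to 103.3, 3.59 to 8.20 and 6.56 to 361.8 CPM after it, against 162.6 to 198.5, 25.8 to 67.7 and 1434 to 3867 CPM ex vivo, and their part in the receptor values was not tested. The 6 B cell markers summed to 9204 to 9561 CPM after WT culture and 11950 to 12510 CPM ex vivo. In Sh3gl1-/- cells they summed to 8310 to 8872 and 10710 to 11450 CPM, and their part was not tested either.

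**Figure D4:**
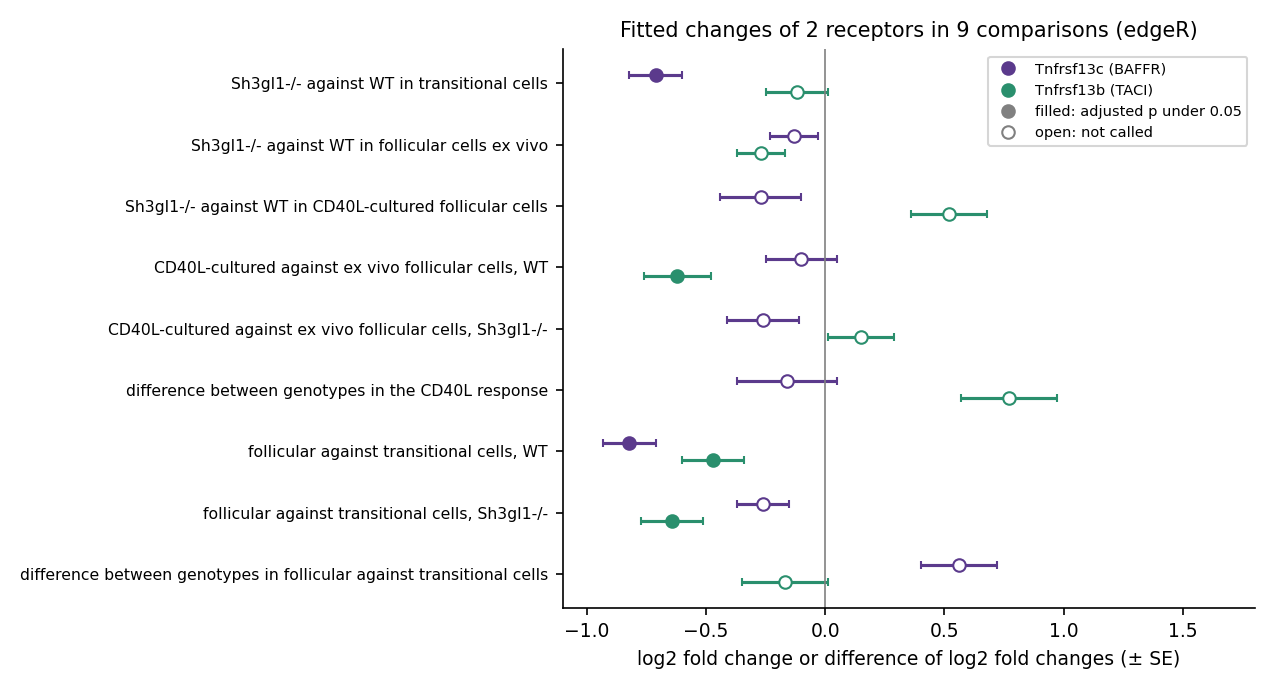
Fitted log2 fold change, or difference of log2 fold changes, ± SE for Tnfrsf13c (violet) and Tnfrsf13b (green) in the 9 comparisons, filled where the edgeR adjusted p was under 0.05. Tnfrsf13c is filled at -0.71 between genotypes in transitional cells and at -0.82 between WT cell states, and Tnfrsf13b at -0.62 for WT culture and at -0.47 and -0.64 between cell states.

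The 52 other genes of the BAFF and APRIL pathway were listed by role. Of the 50 tested with culture in WT cells, 17 were higher and 13 lower (60% called, against 49.3% of all genes, median log2 fold change 0.12 against -0.08 over all genes), and in Sh3gl1-/- cells 17 were higher and 14 lower (62% against 42.4%, median 0.15 against -0.03). The ligand genes were near the floor in these B cells: Tnfsf13b, which encodes BAFF, averaged 0.38 CPM and Tnfsf13, which encodes APRIL, 0.42 CPM in WT follicular cells.

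Among the 10 adaptors and regulators of NIK, 5 were higher and 2 lower with culture in WT cells, a share called of 70% beside the 49.3% of all genes. Traf1, a TRAF adaptor induced by NF-kB, rose from 36.8 ± 8.23 to 557.0 ± 50.3 CPM (SD, n = 3; log2 fold change 3.89, SE 0.17). Birc3, a ubiquitin ligase that holds NIK down together with TRAF2 and TRAF3, rose by 0.37 (SE 0.10), while Map3k14, which encodes NIK itself, fell by 0.89 on the log2 scale (SE 0.20). The edgeR adjusted p was 1.5e-09 for Traf1, 0.0067 for Birc3 and 0.0023 for Map3k14.

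Of the 11 IKK and NF-kB genes 6 were higher and 3 lower, or 81.8%. The largest log2 fold changes were those of Tnfaip3 (3.69, SE 0.23), Nfkbia (1.97, SE 0.21) and Nfkbie (1.77, SE 0.13). The lower genes were Chuk (-0.7, SE 0.12), Ikbkb (-0.48, SE 0.15) and Rel (-0.31, SE 0.1). Nfkb2, which encodes the p100 precursor processed downstream of BAFFR, rose from 35.6 ± 7.85 to 99.1 ± 21.3 CPM (log2 fold change 1.45, SE 0.18), and its partner Relb from 15.9 ± 1.82 to 32.6 ± 7.13 CPM (1.01, SE 0.18). Both passed the edgeR test, at adjusted p = 2e-05 and 3.8e-04. In Sh3gl1-/- cells they changed by 1.41 (SE 0.18) and 0.69 (SE 0.18), and both were called there as well.

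Of the 9 genes of the survival list 4 were higher and 3 lower in WT, or 77.8%, and 1 of the lower genes was Bcl2l11, which encodes BIM and promotes cell death. Bcl2l1, which encodes the survival protein BCL-XL, rose from 5.57 ± 1.77 to 103.5 ± 52.2 CPM (log2 fold change 4.20, SE 0.40, edgeR adjusted p = 1.6e-06). Pim2, a survival kinase, rose by 0.89 (SE 0.23, edgeR adjusted p = 0.0065). Bcl2 went the other way, from 181.6 ± 14.8 to 61.6 ± 7.74 CPM, and fell by 1.59 on the log2 scale (SE 0.12, edgeR adjusted p = 1.7e-07). The PI3K and antigen receptor arm had no gene higher and 4 of 9 lower, or 44.4%, and among 19 tested genes of other TNF receptors 4 were higher and 5 lower in WT, or 47.4%, both near the 49.3% of all genes. Among them was Cd40, the receptor of the added ligand, up from 170.7 ± 10.6 to 432.8 ± 49.3 CPM (1.31, SE 0.11, edgeR adjusted p = 3.8e-07).

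**Figure D5:**
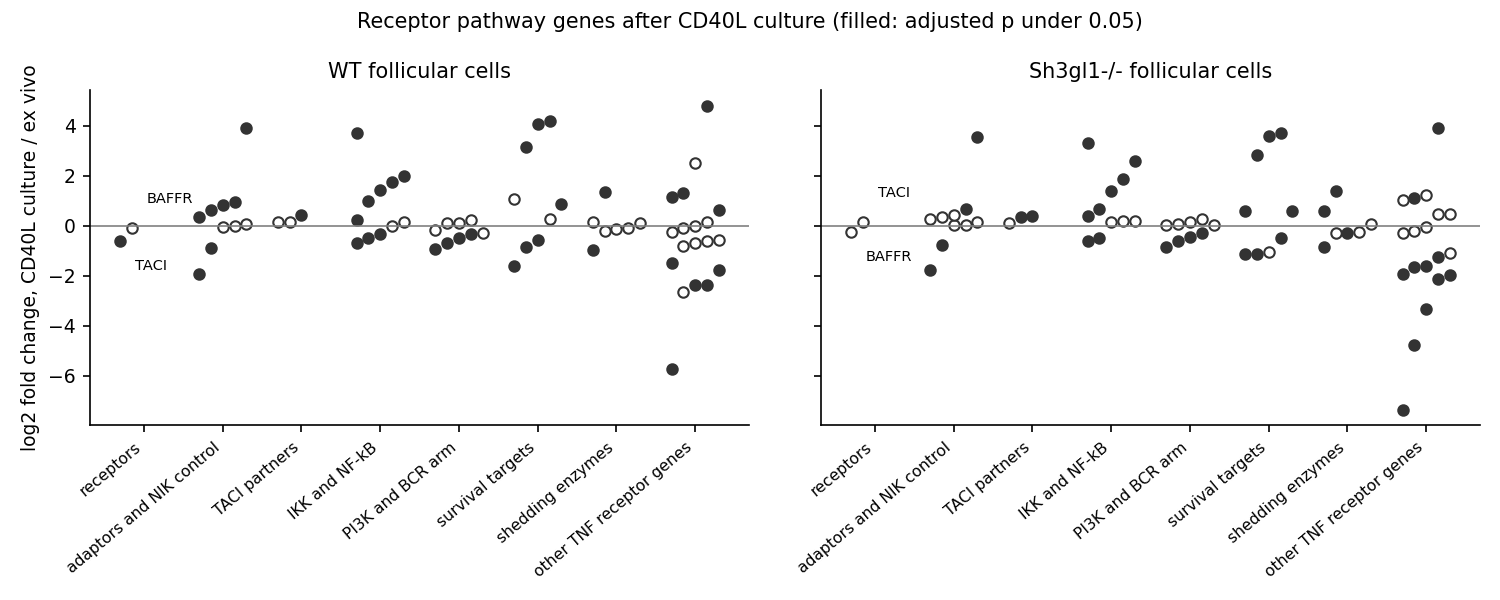
Log2 fold change of each tested gene with CD40L culture against ex vivo follicular cells, in WT (left) and Sh3gl1-/- cells (right), by role in the BAFF and APRIL pathway; 1 point per gene, filled where the edgeR adjusted p was under 0.05, spread sideways only to separate points. TACI is filled at -0.62 in WT and open at 0.15 in Sh3gl1-/- cells, BAFFR is open in both, and in the survival list Bcl2l1 lies at 4.20 in WT and 3.57 in Sh3gl1-/- cells.

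Between WT follicular and transitional cells, 6 of 51 tested pathway genes were higher and 10 lower (31.4% against 25.9% of all genes, median -0.10 against 0.03 over all genes). Bcl2, the survival gene opposing the mitochondrial death pathway, rose from 117.8 ± 1.69 CPM in transitional to 181.6 ± 14.8 CPM in follicular cells (log2 fold change 0.63, SE 0.10, edgeR adjusted p = 3.7e-04), opposite in direction to the receptors. Bcl2a1b rose by 0.78 (SE 0.15, edgeR adjusted p = 0.0023), with counts made uncertain by its near-identical copies, and Pim1 fell by 0.53 on the log2 scale (SE 0.13, edgeR adjusted p = 0.0079). Of the 7 enzymes known to shed or cleave these receptors 4 were lower and none higher, or 57.1%. They included Adam10, which sheds TACI, with a fall of 0.37 (log2 fold change -0.37, SE 0.11, edgeR adjusted p = 0.025), and Adam17, at -0.47 (SE 0.11, edgeR adjusted p = 0.0076). The call of Adam10 was lost without transitional replicate 1 (log2 fold change -0.23) or follicular replicate 1 or 3. In Sh3gl1-/- cells 4 pathway genes were higher and 5 lower (17.6% against 10.4% of all genes), and none of the 7 enzymes was called.

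Between genotypes, 2 of 51 tested pathway genes were called in transitional cells, 3.92% beside the 3.73% of all genes. Both were lower in Sh3gl1-/- cells: Adam17 was at 85.5 ± 4.50 CPM against 131.2 ± 19.9 CPM in WT (log2 fold change -0.62, SE 0.12, edgeR adjusted p = 0.029), and Pik3ap1, the adaptor BCAP that links the antigen receptor to PI3K, was at 95.5 ± 8.14 against 127.9 ± 4.78 CPM (-0.42, SE 0.09, edgeR adjusted p = 0.040). Leaving out each library in turn left 0 to 2 genes called; Pik3ap1 was lost whichever library was left out (adjusted p = 0.058 to 0.17), and Adam17 in all cases but without WT replicate 3. In follicular cells ex vivo 0 of 50 and in cultured cells 0 of 49 tested pathway genes were called by edgeR. Among other TNF receptor genes, Cd27, which marks antigen-experienced B cells in humans and is carried by T cells, was higher in Sh3gl1-/- follicular cells, at 19.5 ± 2.35 against 11.3 ± 0.22 CPM (0.78, SE 0.15, edgeR adjusted p = 0.047), beside T cell markers that summed to 248.3 to 295.9 CPM against 162.6 to 198.5 CPM with Cd3e and Cd3d called higher of 7. The part of those T cell markers was not tested, and the call of Cd27 was lost on leaving out any library other than Sh3gl1-/- replicate 2.

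Across the 18 libraries the gene whose log2 CPM followed Tnfrsf13c most closely was Cyb561a3 (Pearson r = 0.959), then Cnp (0.956), Plekha2 (0.947), Zfp51 (0.943) and Polr3b (0.937), of 15114 genes compared. For Tnfrsf13b the closest were Heatr6 (0.954), Hexa (0.919), Atp6v0d1 (0.916), Spp1 (0.916) and Mir22hg (0.915). For Tnfrsf17 they were the macrophage gene Cd68 (0.958), Tspan15 (0.950), Ctsd (0.948), Adap2os (0.948) and Clec4b1 (0.940), with most libraries at 0 counts of Tnfrsf17. The 18 points share their cell states, so that these values describe a common order of groups.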

How the data were processed

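RNA of 18 libraries was measured, 3 in each of 6 groups. The members and gene lists were chosen with earlier results of these data known. The deposited table held RSEM expected counts, TPM and FPKM per gene, which the authors made from GRCm38; expected (estimated) counts were deposited unnormalized, and TPM and FPKM were scaled by length and library by the authors. The submitters' processing notes name cutadapt 1.9.1, STAR 2.5.2a and RSEM 1.3.0, whereas the study's methods name Tophat and Cufflinks. The labels name a stranded polyA kit and the methods a SMART-Seq kit, and the strand setting of the counting is not given in the sources used here. The labels give 14 hours of CD40L, the methods say overnight and the legends give a longer time. RSEM shares reads between similar transcripts: 28.5% to 31.0% of values above 0 were not whole.

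Expected counts were rounded and tested with edgeR 4.0.16 (R 4.3.3; filterByExpr, TMM, quasi-likelihood test), and a gene was called at a Benjamini-Hochberg adjusted p under 0.05 over all genes tested. Genotypes were compared within each cell state in fits of 6 libraries; culture and cell state comparisons, and their differences between genotypes, came from fits of 12 libraries. Single receptors also had exact two-sided permutation tests. DESeq2 1.42.0, RLE scaling, other filters, a fit over all libraries, replicate blocks and each library left out (added after seeing the data for the Tnfrsf17 folds) were alternatives. The fits were tested on simulated data. Gene IDs were matched to GENCODE M21 names for 51719 of 51912 genes. Replicate pairs of a group differed by more than sampling noise (chi-square per degree of freedom 9.25 to 47.8).

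The named genes are the receptors, called genes of the role lists and the 5 genes of highest correlation with each receptor; a few uncalled genes were named with values after these were seen. Same-numbered libraries of a genotype deviated together: correlations of deviations from group means were 0.103 to 0.242 between WT transitional and follicular, 0.115 to 0.263 in Sh3gl1-/- cells, and 0.136 to 0.224 between WT ex vivo and cultured cells, but 0.030 to 0.119 in Sh3gl1-/- cultured cells. Between genotypes they were -0.088 to 0.101, so numbers do not pair WT with Sh3gl1-/-. The block within genotype was added after seeing the data.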

Additional observations from a re-analysis of the deposited data

Results flagged for a closer look

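Tnfrsf13b, which encodes TACI, stood out with CD40L culture because each of the 3 cultured WT libraries lay below the mean of the WT ex vivo libraries, and each of the 3 cultured Sh3gl1-/- libraries lay above the mean of theirs. The fall in WT was called, and the Sh3gl1-/- change of 0.15 on the log2 scale (SE 0.14) was not (edgeR adjusted p = 0.43). The difference of the log2 fold changes was 0.77 (SE 0.20), and the edgeR test of the difference itself did not pass (adjusted p = 0.47; range over alternatives 0.0013 to 0.83). Outliers were not looked for, since each group holds 3 libraries.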

How the results depend on the processing

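Of 63 results, 45 were the same in every alternative run, as were 871 of 931 recomputed values. Same means that direction and side of the threshold were kept, or that the value moved by less than the replicate spread. The second rule served for levels and for the ratio of the 2 abundant receptors. Leaving 1 of 3 libraries out cannot move the ratio difference by that much, and hardly can for the levels. Those left-out values were thus same by construction, and their share of the totals says nothing on stability. Counts of pathway genes called, and the folds of Tnfrsf17, were judged instead by a limit on their ratio to the main value. The totals include the tests of Tnfrsf17 between cell states, which are not given above. Tnfrsf17 passed the filter on low counts only through the transitional libraries, so nothing is drawn from how those tests came out in the alternatives. The causes of the changed values were not tested. With 1 library left out at a time, Tnfrsf13c between genotypes in transitional cells ranged from -0.83 to -0.64 and passed in 3 of 6 cases, Tnfrsf13c with WT culture from -0.22 to 0.01, Tnfrsf13b between WT cell states from -0.61 to -0.37, and the called pathway genes from 0 to 2 between genotypes in transitional cells and from 8 to 16 between WT cell states. With the replicate block, in which numbers do not pair the genotypes, Tnfrsf13c in transitional cells was -0.71 (adjusted p = 0.054) with 0 pathway genes called; 1 fit over all 18 libraries also called 0 there, and 9 between WT cell states. The replicate block within genotype, chosen after seeing the data, turned Tnfrsf13c between Sh3gl1-/- cell states (-0.26) and the genotype difference in that comparison (0.57) into calls, and changed no other receptor call. Keeping all genes with at least 1 count called Tnfrsf17 in transitional cells (2.02), Tnfrsf13b in the CD40L difference (0.78), and Tnfrsf13c between Sh3gl1-/- cell states (-0.26) and in its difference (0.57), with 5 pathway genes in transitional cells and 1 in follicular cells, in the CD40L difference and in the cell state difference; DESeq2 called Tnfrsf13b (0.73) and Tnfrsf13c (0.59) in the differences and 7 pathway genes in transitional cells.

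Over all genes, calls between genotypes were 514 in transitional, 115 in follicular and 3 in cultured cells, against 1340, 352 and 79 by DESeq2, 1426, 602 and 216 with every counted gene, 90, 212 and 21 with the replicate block, 144, 49 and 82 in 1 fit over all libraries, and 28 to 479, 32 to 112 and 1 to 9 with a library left out. The CD40L difference had 0 calls, against 29 by DESeq2, 210 with every counted gene and up to 1 with a library left out; the cell state difference had 10, against 364, 462, 20 with the replicate block, 99 with the block within genotype, 0 in 1 fit and 0 to 23 with a library left out. The comparison of cell states had 3772 calls in WT and 1518 in Sh3gl1-/- cells, against 2444 to 3773 and 986 to 1647 with a library left out. Leaving out each library in turn, chosen after seeing the data, moved the lowest fold of Tnfrsf17 between cell states from 6.40 to 14.5 in WT and the ratio from 31.8 to 98.5 in Sh3gl1-/- cells. In each follicular and cultured library Tnfrsf17 lay below 3 counts, which stand for 0.163 to 0.242 CPM. In the transitional libraries it lay above this, at 0.395 to 5.18 CPM, and the libraries of a group differed widely. The effect of depth was not tested.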
